A study of Mus musculus with 6 samples.

Results

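The machinery that carries proteins between the endoplasmic reticulum (ER) and the Golgi was followed here as 42 genes in mouse embryonic fibroblasts (MEFs) carrying a Cre-deletable Kansl1. The genes were chosen by name and function, as the rows of the expression table whose symbol was on a list of COPI, COPII and TRAPP subunits, their GTPases and their cargo receptors. All 42 were found among the 26898 genes of the table, and all 42 were among the 14799 genes that averaged at least 1 TPM (a level set per gene length and per library total) in either group and were tested. RNA sequencing had been done on 3 Kansl1fl/fl MEF cultures (WT 4, WT 5 and WT 8) and on 3 Kansl1fl/fl/CAG-cre cultures (KO 3, KO 7 and KO 10).

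All 6 cultures were primary C57BL/6 MEFs at passage 3, grown with fetal bovine serum (10% in the sample records, while the methods give another share) and given 1 μM tamoxifen for 48 h, so the controls carried the floxed alleles and the drug but no Cre. CAG-cre is a Cre recombinase driven by the ubiquitous CAG promoter that tamoxifen activates. No Cre-bearing culture without floxed alleles was analysed here, so deletion of Kansl1 and activity of Cre cannot be told apart. The MEFs were isolated from embryos, and whether these were littermates is not stated.

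Cargo leaves the ER in vesicles coated with COPII. The GTPase SAR1, loaded by its exchange factor PREB at sites organised by SEC16A, recruits an inner layer of SEC23 and SEC24 and an outer cage of SEC13 and SEC31. SEC24 picks the cargo, and SEC23 stimulates GTP hydrolysis by SAR1. COPI, a coatomer recruited by ARF1 and its exchange factor GBF1, carries escaped ER proteins and receptors back. TRAPP is a tethering complex and Rab exchange factor. A common core is shared by TRAPP II, marked by TRAPPC9 and TRAPPC10, and by TRAPP III, marked by TRAPPC8, TRAPPC11, TRAPPC12 and TRAPPC13, and TRAPP III also takes part in autophagy. Fibroblasts use this pathway heavily because they secrete collagen.

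Regulatory sequence was available for 35 of the 42 genes, as RefSeq windows (GRCm38.p6) that run from 250 bases before to 50 bases after each start. The unfolded protein response element TGACGTGG, or its reverse complement CCACGTCA, was searched on both strands because several coat genes are known targets of ER stress factors. It was present in 7 of the 35 genes, in 105 of the 9570 tested genes with a window (1.10%) and in 0.676% of all 32851 windows. The genes were Copb1, Copb2, Arf1, Gbf1, Sec23a, Sec24d and Kdelr3, and 0 of the 10 TRAPP genes with a window had it. The stretches below are shown because they are the places where the coat and receptor genes carry the element. Each is read along the gene's own strand with the element in capitals.
Copb1, chr7:114254685-114254724: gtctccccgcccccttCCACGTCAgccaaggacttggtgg
Copb2, chr9:98563708-98563747: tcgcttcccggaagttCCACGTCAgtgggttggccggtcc
Arf1, chr11:59228223-59228262: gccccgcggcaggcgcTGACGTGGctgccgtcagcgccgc
Gbf1, chr19:46152530-46152569: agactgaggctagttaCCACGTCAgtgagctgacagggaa
Sec24d, chr3:123267454-123267493: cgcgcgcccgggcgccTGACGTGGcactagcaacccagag
Kdelr3, chr15:79516362-79516401: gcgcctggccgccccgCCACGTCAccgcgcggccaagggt

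The inner-coat paralogs Sec23a and Sec23b are shown whole because their RNAs moved in opposite directions in KO MEFs. The element, again in capitals, is present in the window of Sec23a and not in that of Sec23b.
Sec23a, chr12:59011968-59012267, minus strand: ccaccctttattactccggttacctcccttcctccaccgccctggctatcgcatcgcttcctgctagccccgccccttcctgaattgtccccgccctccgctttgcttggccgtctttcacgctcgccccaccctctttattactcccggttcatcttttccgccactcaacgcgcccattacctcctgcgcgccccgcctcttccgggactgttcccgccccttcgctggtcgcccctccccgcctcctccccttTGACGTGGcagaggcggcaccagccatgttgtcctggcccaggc
Sec23b, chr2:144555979-144556278, plus strand: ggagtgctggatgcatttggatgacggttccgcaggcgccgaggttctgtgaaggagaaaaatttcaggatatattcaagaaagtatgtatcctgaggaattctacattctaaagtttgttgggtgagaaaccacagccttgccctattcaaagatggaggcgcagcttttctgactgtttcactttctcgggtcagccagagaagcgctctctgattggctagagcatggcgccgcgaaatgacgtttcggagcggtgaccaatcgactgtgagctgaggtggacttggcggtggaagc
A longer motif, the ER stress response element (CCAAT, then 9 bases of any kind, then CCACG), was in 0 of the 35 windows and in 0.119% of all windows. A match is a string of letters and says nothing of binding in these cells. Over the 105 tested genes with TGACGTGG, 9 were higher and 10 were lower at an adjusted p under 0.05, with a median log2 fold change of 0.01. Among the 7 transport genes that have it, Sec23a and Kdelr3 were higher at that threshold, as were 7.14% of all tested genes. The fold changes of the other 5 on the log2 scale were 0.10 for Copb1, 0.23 for Copb2, 0.07 for Arf1, 0.09 for Gbf1 and 0.27 for Sec24d, all with an adjusted p above 0.05. With median-of-ratios scaling and with limma-voom, both described below, all 7 were higher at an adjusted p under 0.05. In those fits 20.3% and 21.7% of all tested genes were higher. Without KO 10, 0 of the 7 were higher.

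Whole reads recovered from the table ranged from 17655495 in KO 3 to 27718259 in KO 7, and 13679 to 14268 genes per sample reached 1 TPM. Kansl1 itself was 28.5, 26.7 and 24.4 TPM in WT 4, 5 and 8 against 13.7, 15.8 and 14.4 TPM in KO 3, 7 and 10, which left 55.1% of the WT mean (log2 fold change -0.82, adjusted p = 0.000859 by limma). All 10 fibroblast markers were at 1 TPM or more, with a summed level of 10277 to 14857 TPM in WT and 11006 to 14443 TPM in KO. The 8 macrophage markers summed to 29.8 to 35.1 TPM in WT and 68.2 to 136 TPM in KO, most of it Lyz2, and none of the 8 was at 0 in any sample. For 5 of the 8 (Csf1r, Adgre1, Lyz2, Mrc1 and Tyrobp) every KO sample was above every WT sample. Ptprc, which defines blood cells, was 0.0872 to 0.0921 TPM in WT and 0.0902 to 0.257 TPM in KO. Every KO sample was also above every WT sample for 2 of 5 epithelial markers, whose list summed to 40.5 to 45.8 TPM in WT and 49.3 to 66.3 TPM in KO, and for 2 of 5 endothelial markers, which summed to 2.23 to 5.57 and 3.13 to 4.70 TPM. Their part in the results that follow was not tested, and in bulk RNA more cells of a type and more RNA per cell cannot be told apart. A single small RNA, Gm23935, took 15.5% to 25.6% of all TPM, most in KO 3 and WT 8. KO 3 was the lowest KO sample for 38 of the 42 genes and WT 8 the lowest WT sample for 32. Fold changes and counts are therefore also given after median-of-ratios scaling. That step shifted the median over all tested genes from -0.07 to 0.02 on the log2 scale.

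The first question was which transport genes differ between KO and WT MEFs. Trappc9, Trappc12, Copg2 and Sar1b fell past both thresholds, an adjusted p under 0.005 and a log2 fold change below -0.5. These are subunits of TRAPP II and TRAPP III, a subunit of the COPI coat and the GTPase that starts the COPII coat. That is 4 of 42 genes, where 9.03% of all tested genes were lower by the same rule. None of the 42 was higher by that rule in the main limma fit, on unscaled TPM, against 1.64% of all tested genes. In that fit 10 of the 42 were higher at an unadjusted p under 0.05, as were 12.2% of all tested genes. By the rule of both thresholds, limma after median-of-ratios scaling and limma-voom on the recovered reads each called 1 higher, Sec31a. At an adjusted p under 0.05 with no limit on the fold, 11 of the 42 were lower (26.2%, against 20.7% of all tested genes) and 6 were higher (14.3%, against 7.14%). All KO samples lay below all WT samples for 12 of the 42 (29.9% of all tested genes) and above them for 11 (13.3% of all tested genes), and the groups overlapped for the other 19. The 42 log2 fold changes had a median of 0.02, with 21 negative and 21 positive, beside -0.07 over all tested genes.

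**Figure D1:**
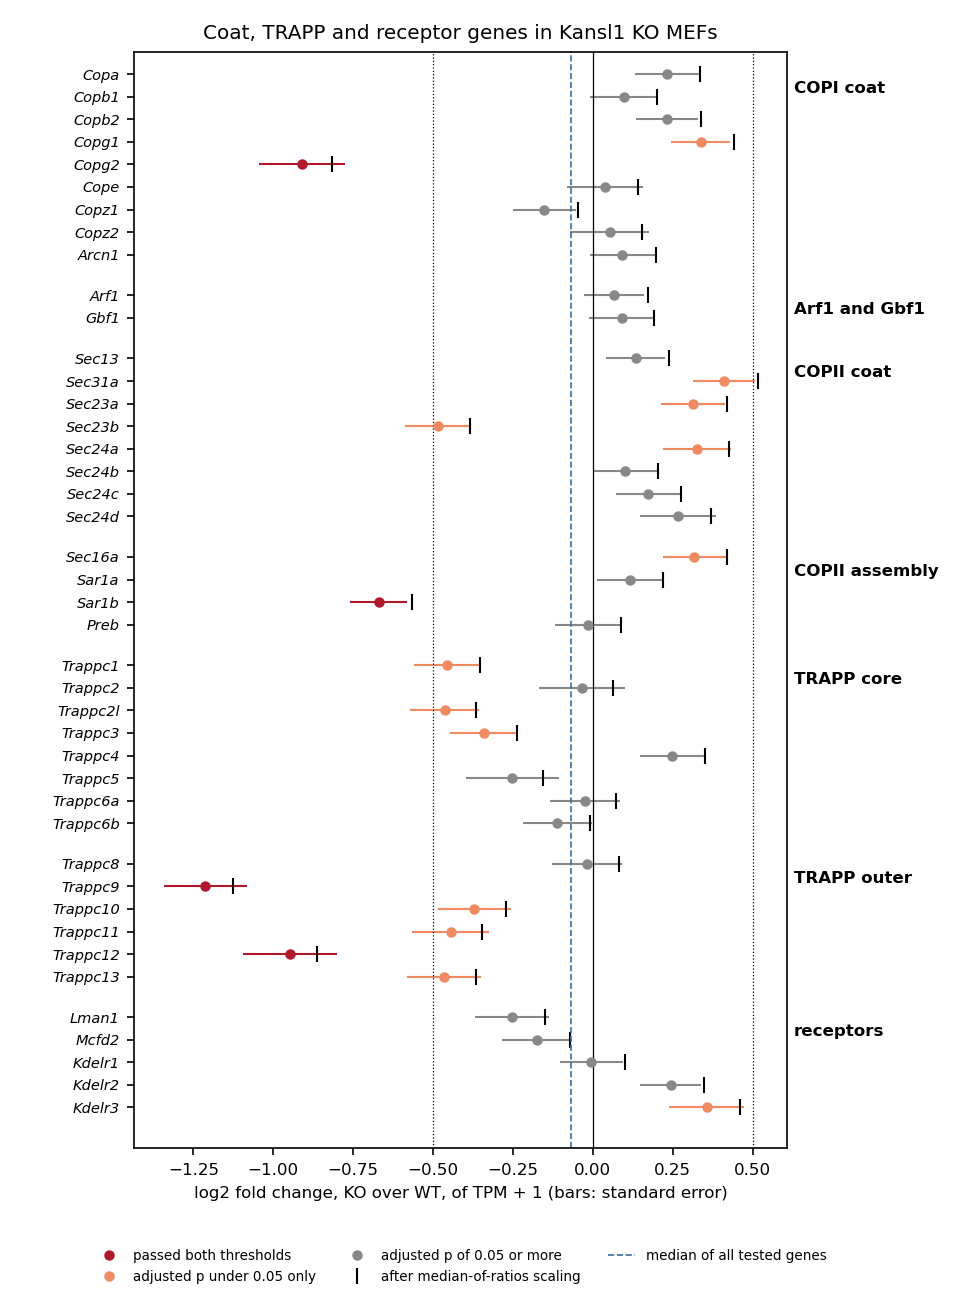
Log2 fold change of TPM + 1 in KO over WT MEFs (horizontal axis) for the 42 genes grouped by role, with standard errors from limma (n = 3 per group), and the same change after median-of-ratios scaling (vertical tick). Trappc9, Copg2, Trappc12 and Sar1b lie to the left of the -0.5 line, while 7 of the 8 COPII coat genes lie to the right of 0.

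Trappc9 fell the most of the 42. Its product is a TRAPP II subunit. The gene spans chr15:72589620-73061204 on the minus strand (GRCm38). It was 8.52, 8.18 and 7.85 TPM in WT 4, 5 and 8 against 2.60, 3.11 and 3.20 TPM in KO 3, 7 and 10. The lowest WT sample was above the highest KO sample by a wide margin. The KO mean was 36.3% of the WT mean (log2 fold change -1.21 ± 0.13 SE, adjusted p = 0.000356), on 150 to 591 reads per sample.

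Trappc12, a TRAPP III subunit at chr12:28690628-28750472 on the minus strand, was 7.36, 7.24 and 6.29 TPM in WT against 2.57, 3.62 and 3.26 TPM in KO, in the same sample order. It and Trappc9 had the lowest WT levels of the 42. The KO mean was 45.2% of WT (log2 fold change -0.95 ± 0.15 SE, adjusted p = 0.00166). The call was lost when WT 4, WT 5 or KO 3 was left out, with adjusted p of 0.00525, 0.00713 and 0.00511.

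Copg2, which encodes a γ subunit of the COPI coat, lies at chr6:30747554-30896794 on the minus strand. Its level was 17.5, 15.7 and 16.2 TPM in WT against 7.06, 9.90 and 8.09 TPM in KO. The groups did not overlap, and the KO mean was 50.7% of WT (log2 fold change -0.91 ± 0.13 SE, adjusted p = 0.00131).

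Sar1b, at chr11:51763687-51791925 on the plus strand, was by far the most abundant of the 4. It was 101, 97.2 and 96.6 TPM in WT against 61.9, 63.3 and 59.0 TPM in KO, with little spread in either group. The KO mean was 62.5% of WT (log2 fold change -0.67 ± 0.09 SE, adjusted p = 0.000823). Without KO 10 its adjusted p was 0.00624.

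**Figure D2:**
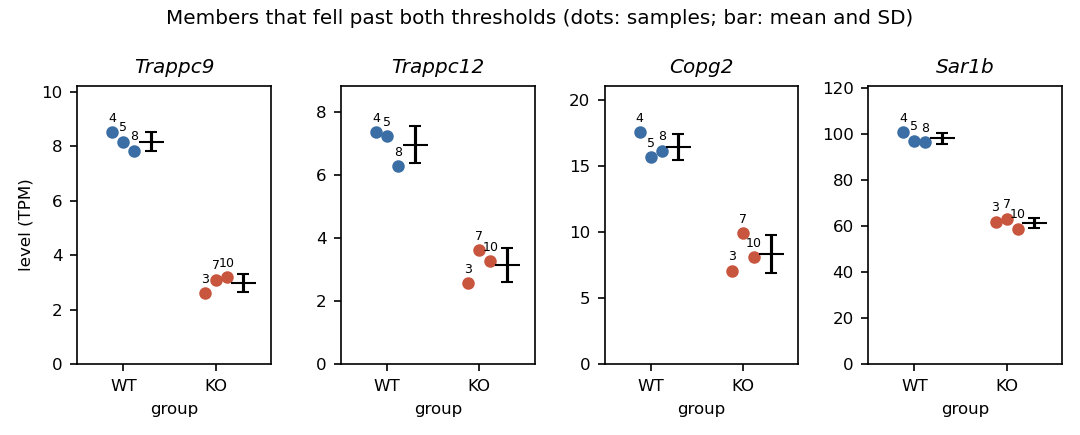
Level in TPM (vertical axis, from 0) of Trappc9, Trappc12, Copg2 and Sar1b in each WT and KO sample, numbered, with the group mean and SD (n = 3) at the side. In every panel the 3 KO samples sit below the 3 WT samples.

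TRAPP was the group with the most falls. Of its 14 genes, 8 were lower at an adjusted p under 0.05 (57.1%, against 20.7% of all tested genes). With limma 0 were higher at that threshold (7.14% of all tested genes) and 1, Trappc4, at an unadjusted p under 0.05 (12.2%). The median log2 fold change was -0.36. The summed level of the 14 was 409, 384 and 351 TPM in WT 4, 5 and 8 against 301, 335 and 317 TPM in KO 3, 7 and 10, and the groups did not overlap. After median-of-ratios scaling 8 were lower (23.2% of all tested genes) and 1, Trappc4, was higher (20.3% of all tested genes). The count rested on single libraries: 5 were lower without WT 4 (17.1% of all genes in that fit), 3 without WT 5 (14.3%) and 3 without KO 10 (15.1%). Trappc9 and Trappc12 were lower in each of these fits.

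Of the 6 subunits that distinguish TRAPP II and TRAPP III, 5 were lower, against 20.7% of all tested genes, and 3 were without WT 4, 2 without WT 5 and 3 without KO 10. Their summed level went from 104 ± 7.32 TPM in WT to 75.2 ± 7.09 TPM in KO (SD, n = 3). Besides Trappc9 and Trappc12, the TRAPP II subunit Trappc10 fell to 76.2% of WT (log2 fold change -0.37, adjusted p = 0.0379). The TRAPP III subunits Trappc11 and Trappc13 were at 72.6% and 71.5% of WT (adjusted p = 0.0226 and 0.0149). Trappc8, also of TRAPP III, was 17.3, 15.3 and 14.7 TPM in WT against 14.7, 16.0 and 15.9 TPM in KO, and these overlapped (adjusted p = 0.918).

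In the TRAPP core 3 of 8 genes were lower, against 20.7% of all tested genes, and 2 were without WT 4 or KO 3, 1 without WT 5 and 0 without KO 10. Trappc1 was at 72.2% of WT (log2 fold change -0.46, adjusted p = 0.00982), Trappc2l at 70.8% (-0.46, adjusted p = 0.0115) and Trappc3 at 78.5% (-0.34, adjusted p = 0.0377). Trappc2, Trappc5, Trappc6a and Trappc6b overlapped between the groups, with log2 fold changes of -0.25 to -0.02, and those of Trappc2, Trappc6a and Trappc8 turned positive after median-of-ratios scaling. Trappc4 was the one TRAPP gene with a positive value in the TPM fit, at 47.8, 48.7 and 41.8 TPM in WT against 53.1, 55.0 and 56.2 TPM in KO (log2 fold change 0.25, adjusted p = 0.0938). All 3 KO samples were above the WT samples. Trappc4 shares 462 bases, 18.9% of its exons, with Rps25 on the opposite strand. Rps25 was at 313 ± 31.1 TPM in WT and 314 ± 32.0 TPM in KO. The strand setting of the counting is not given, and without strand the reads of those shared bases cannot be told apart.

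Of the 8 COPII coat genes, 3 were higher at an adjusted p under 0.05 (7.14% of all tested genes), 1, Sec23b, was lower (20.7% of all tested genes) and 4 did not pass. The log2 fold change was positive for 7 of the 8. Only 1 was higher when WT 5, WT 8 or KO 7 was left out, and 0 when KO 10 was. The summed level was 704, 737 and 663 TPM in WT 4, 5 and 8 against 767, 865 and 841 TPM in KO 3, 7 and 10, so all KO samples were above all WT samples. The outer cage subunit Sec31a rose the most, from 145, 157 and 140 TPM in WT to 181, 209 and 199 TPM in KO (log2 fold change 0.41 ± 0.10 SE, adjusted p = 0.0128). Its fold change was 0.51 after median-of-ratios scaling, which passes both thresholds. Sec13, the other cage subunit, overlapped between groups (0.13, adjusted p = 0.316).

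In the inner coat, Sec23a rose to 124% of WT (log2 fold change 0.31, adjusted p = 0.0431) while Sec23b was 39.1, 37.5 and 34.1 TPM in WT against 24.4, 27.8 and 26.0 TPM in KO. Sec23b was below WT in every KO sample, at 70.6% of WT (-0.49, adjusted p = 0.00777), short of both thresholds. Sec24a, a cargo adaptor, rose to 126% of WT (0.32, adjusted p = 0.0482). Sec24b, Sec24c and Sec24d had log2 fold changes of 0.10, 0.17 and 0.27 and adjusted p of 0.485, 0.238 and 0.130.

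Among the factors that assemble COPII, the scaffold Sec16a rose to 125% of WT (log2 fold change 0.32, adjusted p = 0.0364) and Sar1b fell. Sar1a, the paralog of Sar1b, was 197, 199 and 175 TPM in WT against 189, 220 and 209 TPM in KO (0.11, adjusted p = 0.431). Preb was 25.6 ± 1.40 TPM in WT and 25.3 ± 2.07 TPM in KO (adjusted p = 0.935).

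The COPI coat had 1 gene lower, Copg2, and 1 higher, Copg1, of 9, beside 20.7% and 7.14% of all tested genes, and its median log2 fold change was 0.09. Copg1, the other γ subunit, was 69.1, 72.7 and 66.5 TPM in WT against 82.7, 91.0 and 90.2 TPM in KO (0.34, adjusted p = 0.0248). Copa and Copb2, the α and β′ subunits of the outer layer, were both at 118% of WT with all KO samples above WT, without passing the test (adjusted p = 0.119 and 0.107). The summed coat level, in unscaled TPM, was 753 ± 42.2 in WT and 825 ± 64.2 in KO, and these overlapped. After median-of-ratios scaling 5 of the 9 were higher at an adjusted p under 0.05 (20.3% of all tested genes) and 1 was lower (23.2%). Without KO 10, 0 of the 9 were higher (4.06% of all genes in that fit). Arf1 had the highest level of the 42, at 692 ± 28.5 TPM in WT and 724 ± 39.6 TPM in KO (adjusted p = 0.634). Gbf1 was 25.0 ± 1.43 and 26.6 ± 1.63 TPM (adjusted p = 0.544).

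Of the 5 receptors, Kdelr3, which returns ER residents that carry a KDEL tail, was higher, from 162, 209 and 193 TPM in WT to 222, 255 and 243 TPM in KO (log2 fold change 0.36, adjusted p = 0.0469). Kdelr2 was at 118% of WT with all KO samples above WT (adjusted p = 0.0853), and Kdelr1 was 209 ± 8.03 TPM in WT and 209 ± 17.7 TPM in KO. Lman1 and Mcfd2, which together export coagulation factors, had log2 fold changes of -0.25 and -0.18 (adjusted p = 0.135 and 0.266). All 3 KO samples were below WT for Lman1 and overlapped WT for Mcfd2. With limma 0 of the 5 were lower (20.7% of all tested genes), also at an unadjusted p under 0.05, but both Lman1 and Mcfd2 were lower at an adjusted p under 0.05 once the 2 most abundant RNAs were removed, a fit in which 26.5% of all genes were lower.

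The 6 rises were small and depended on scaling and on single libraries. Median-of-ratios scaling and limma-voom each put 19 of the 42 higher at an adjusted p under 0.05, among them 5 of 9 COPI coat and 7 of 8 COPII coat genes with the former. Under the same fits 20.3% and 21.7% of all tested genes were higher. In contrast, 2 were higher without WT 5 (5.26% of all genes in that fit), 1 without WT 8 (4.5%), 1 without KO 7 (4.15%) and 0 without KO 10 (4.06%). The number of falls was 11 with median-of-ratios scaling and with limma-voom (24.3% of all tested genes with the latter) and 13 with the 2 most abundant RNAs removed (26.5%). It was 9 with every gene tested (9.02%), 9 with a filter at 10 TPM (23.1%) and 9 without a variance trend (20.2%), and 6 were lower without WT 5 (14.3%) and 6 without KO 10 (15.1%).

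**Figure D3:**
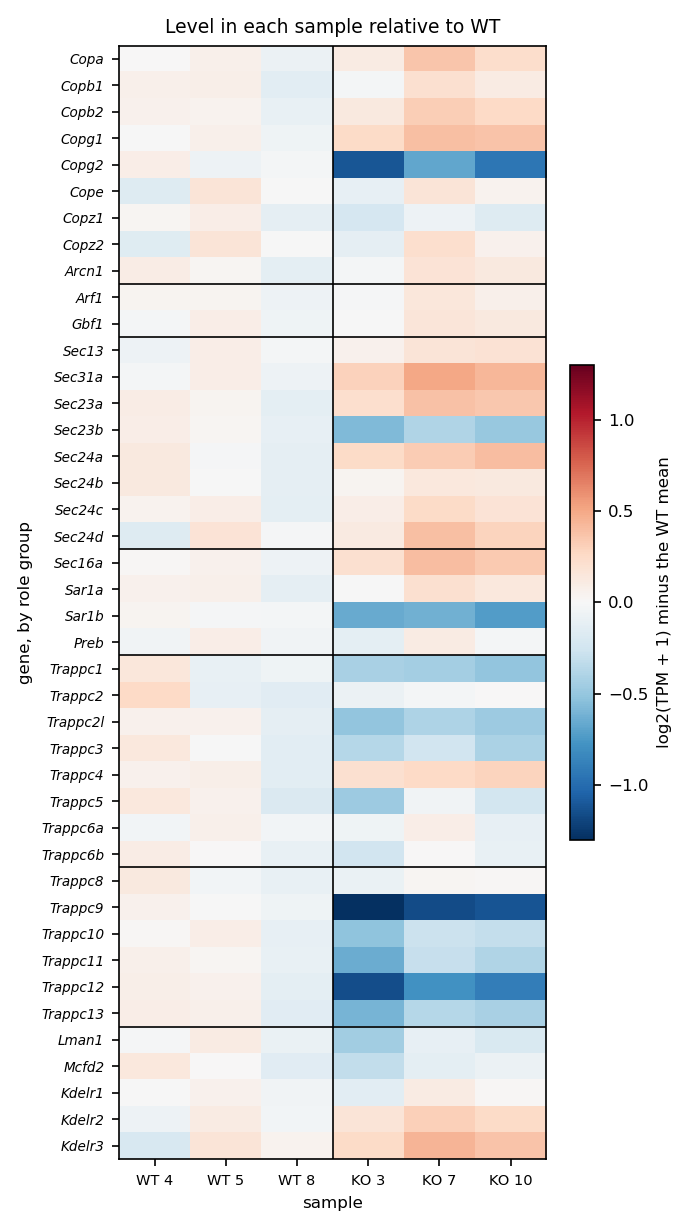
Level of each of the 42 genes (rows, by role) in each sample (columns) as log2(TPM + 1) minus the WT mean, red for higher and blue for lower. The KO columns are bluest at Trappc9, Trappc12, Copg2 and Sar1b, and KO 3 is the lowest KO sample for 38 of the 42 genes.

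Because TPM is set per length, levels of paralogs could be compared within a sample, and such ratios do not depend on scaling between libraries. In 6 of 10 fixed pairs the share of the pair held by the second paralog did not overlap between WT and KO. For levels of single genes that held for 29.9% (KO below) and 13.3% (KO above) of all tested genes, and no such share was computed over other pairs of genes. Copg2 made up 20.2%, 17.7% and 19.6% of Copg1 plus Copg2 in WT 4, 5 and 8 against 7.87%, 9.81% and 8.24% in KO 3, 7 and 10. Sec23b made up 20.8%, 20.7% and 21.1% of the SEC23 pair in WT and 13.1%, 13.2% and 12.7% in KO. Sar1b made up 33.9%, 32.8% and 35.5% of the SAR1 pair in WT and 24.6%, 22.3% and 22.0% in KO. In each of these 3 pairs the minor paralog became a smaller share, as did Kdelr1 beside Kdelr2. The other way, Sec24a beside Sec24b and Trappc2 beside Trappc2l, also minor, became larger shares.

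Trappc2l went from 63.5% ± 3.28 to 55.9% ± 0.963 of Trappc2 plus Trappc2l, Sec24b from 73.3% ± 0.109 to 70.0% ± 0.623 of Sec24a plus Sec24b, and Kdelr2 from 63.9% ± 0.868 to 67.7% ± 0.796 of Kdelr1 plus Kdelr2 (SD, n = 3). For each of the 6 pairs the exact permutation test of the log2 ratio (two-sided) gave p = 0.1, the smallest that 3 against 3 can give, and 0.167 after Benjamini-Hochberg adjustment over the 10 pairs, so none could reach 0.05. Copz2 with Copz1, Sec24d with Sec24c, Trappc6b with Trappc6a and Kdelr3 with Kdelr2 overlapped, with exact permutation p of 0.2, 0.6, 0.4 and 0.2. Reads that match both paralogs could have been split by the counting, and how they were treated is not given in the sources used here.

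**Figure D4:**
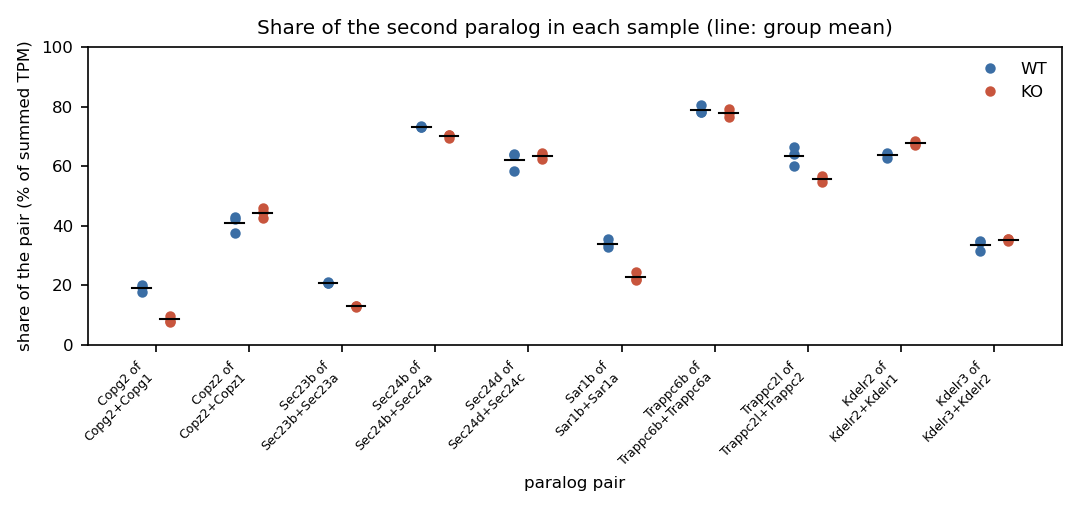
Share of the summed TPM of each paralog pair held by the second paralog (vertical axis, 0 to 100%) in each WT and KO sample, with lines at the group means. The WT and KO dots are apart for Copg2, Sec23b, Sec24b, Sar1b, Trappc2l and Kdelr2.

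All 11 genes that fell had a WT level under 100 TPM. Of the 9 with a WT level under 20 TPM, 5 were lower at an adjusted p under 0.05, against 22.4% of all tested genes at that level. The number was 3 without WT 5 (15.9% of all genes at that level in that fit) and 3 without KO 10 (17.1%). Of the 12 above 100 TPM, 0 were lower and 3 were higher with limma, against 6.68% lower and 7.10% higher of all tested genes there, and 0 of the 12 were lower at an unadjusted p under 0.05. With the 2 most abundant RNAs removed, 1 of the 12, Mcfd2, was lower and 7 were higher (16.3% and 22.1% of all tested genes at that level), and with median-of-ratios scaling 10 were higher (35.5% of all tested genes there). Sar1b, at 98.2 TPM in WT, lies just under that limit. Across the 42 genes, Spearman's rho between WT level and log2 fold change was 0.53, and across all tested genes it was -0.04. The points share the same 6 libraries and are not independent replicates, so this is a description. All of the 9 genes under 20 TPM except Copg2 were TRAPP genes, and the highest TRAPP level in WT was 77.6 TPM. At these ends of the range, WT level and TRAPP membership cannot be told apart.

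**Figure D5:**
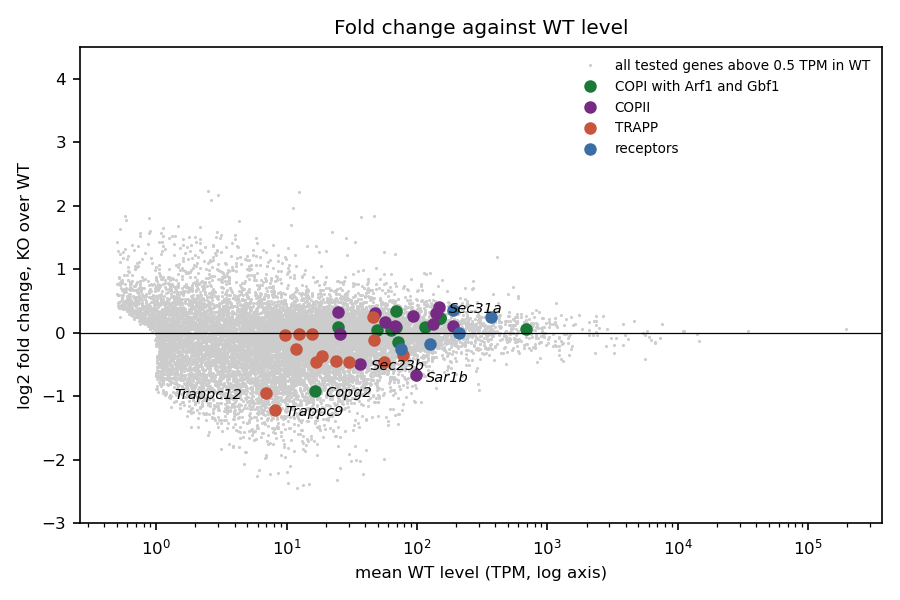
Log2 fold change of TPM + 1 in KO over WT (vertical axis) against mean WT level (horizontal log axis) for the 42 genes, coloured by complex, over the 14589 tested genes above 0.5 TPM in WT (grey). Trappc9 and Trappc12 lie at the low left, and of the 12 genes above 100 TPM none was lower at an adjusted p under 0.05.

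The genes beside the 4 that fell past both thresholds were then examined, a set chosen after the values were seen. Copg2 ends over Mest, an imprinted gene on the opposite strand, and the pair shares 912 bases, 17.8% of the exons of Copg2. Mest was 9.48, 14.5 and 10.3 TPM in WT against 17.9, 25.2 and 23.7 TPM in KO, so it rose while Copg2 fell (log2 fold change 0.91, adjusted p = 0.00476). Whether the counting used strand is not stated, and without strand the reads of the shared stretch cannot be told apart. Trappc12 and Eipr1, whose product works with endosomal tethers, start 1331 bases apart on opposite strands. Eipr1 fell with Trappc12, from 8.10 ± 0.753 to 2.94 ± 0.267 TPM (-1.21, adjusted p = 0.000379). Adi1, beside the other end of Trappc12, was also below WT in every KO sample. Its level was 18.9 ± 0.530 TPM in WT and 13.3 ± 2.97 TPM in KO (-0.50, adjusted p = 0.0384). Peg13, a noncoding RNA gene inside Trappc9, was 14.7 ± 2.04 TPM in WT and 17.9 ± 0.732 TPM in KO (adjusted p = 0.124). The annotated starts of Sar1b and Sec24a lie 53 bases apart on opposite strands, but the coding transcripts of Sec24a begin 7069 bases away.

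Other genes of the same route were read from 4 lists of 51 genes, of which 49 were tested. Of the 49, 9 were lower at an adjusted p under 0.05 (18.4%, against 20.7% of all tested genes). Past both thresholds, 3 were lower, against 9.03% of all tested genes. Tmed4, a p24 cargo receptor, was at 59.3% of WT (log2 fold change -0.74, adjusted p = 0.000857), and Ergic3, a cargo receptor of the ER-Golgi intermediate compartment, was at 59.7% (-0.74, adjusted p = 0.00109). Cog7, a subunit of the COG tether of the Golgi, was 8.83, 8.87 and 9.87 TPM in WT against 2.88, 3.93 and 3.66 TPM in KO (-1.19, adjusted p = 0.000482). Its KO level was 38.0% of WT, close to the 36.3% of Trappc9. Among the 18 Golgi tethers, 5 were lower at an adjusted p under 0.05 (27.8%, against 20.7% of all tested genes): besides Cog7, Cog5, Cog6, Zw10 and Nbas were at 62.1%, 71.3%, 76.0% and 66.7% of WT. Of the 12 ER exit factors 3 (25.0%) were lower at that threshold, Lman2 and Lman2l besides Ergic3. None of the 10 Arf regulators was lower with limma (0 at an unadjusted p under 0.05).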

How the data were processed

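RNA from 6 MEF cultures was sequenced by the authors on an Illumina NovaSeq instrument after NEBNext Ultra library preparation from 2 μg RNA. Reads were aligned by the authors with STAR to mm10. The submitters' processing notes also list Bowtie 0.12.2, and the counting program and its annotation are not given in the sources used here. The deposited table holds TPM per gene and sample, along with the authors' log2 fold changes and adjusted p-values from DESeq2, which were not used.

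TPM times merged exon length (GENCODE M21, 26898 of 26898 identifiers matched) gave whole reads for 100.0% of values at a tolerance of 0.05. These reads served for depth and for limma-voom. The main test was limma 3.58.1 in R 4.3.3 with a variance trend, two-sided, on log2(TPM + 1) for genes averaging 1 TPM in either group, with Benjamini-Hochberg adjustment over all 14799. Fold changes of low genes are understated on this scale. The thresholds, an adjusted p under 0.005 and a log2 fold change beyond 0.5, are those of the study's volcano plot. P-values rest on 3 samples per group.

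Named were Kansl1, all genes past the thresholds or with adjusted p under 0.05, both genes of each paralog pair, and others by group. The genes were picked by name and function, but they and the lists were chosen with earlier results of these data known. The alternatives were other scaling, pseudocount, filters and fits, and leaving out each sample. One gene of the 4 neighbouring lists is not reported here.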

Additional observations from a re-analysis of the deposited data

How the results depend on the processing

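The 17 genes with an adjusted p under 0.05 kept their direction in every alternative that gave a value. With every gene tested, 2 genes fell past both thresholds (Sar1b and Trappc9), and the adjusted p was 0.00857 for Copg2 and 0.0119 for Trappc12. With a filter at 10 TPM, 2 did (Copg2 and Sar1b), because Trappc9 and Trappc12 were no longer tested. Leaving out 1 sample gave 3 to 4. Median-of-ratios scaling and limma-voom each called 1 gene higher, Sec31a (log2 fold change 0.515 and 0.517). At an adjusted p under 0.05, 6 to 11 genes were lower and 0 to 5 higher when 1 sample was left out. Higher genes at that threshold numbered 3 with every gene tested, 19 with median-of-ratios scaling, 19 with limma-voom, 12 without the 2 most abundant RNAs and 1 without a variance trend. The cause was not tested. The median log2 fold change of the 42 was 0.12 with median-of-ratios scaling, 0.12 with limma-voom, and -0.035 to 0.083 when 1 sample was left out. The log2 ratio of Sec24d to Sec24c, KO minus WT, was 0.092, reversed to -0.016 without WT 4 and was 0.151 without WT 8. Alternatives at an adjusted p under 0.05, by role group, by level and for the paralogs were chosen after seeing the data. No replicate number occurs in both groups and the litter of each sample is not stated, so no paired analysis was done.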
